A study of Rattus norvegicus with 15 samples.

Results

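Mki67, Pcna, Cdk1, Cdk4 and Ccnd1 are 5 cell-cycle genes, taken by their Ensembl identifiers from the 32545 rat genes counted in every library. The rows were ENSRNOG00000028137 for Mki67, ENSRNOG00000021264 for Pcna, ENSRNOG00000000632 for Cdk1, ENSRNOG00000025602 for Cdk4 and ENSRNOG00000020918 for Ccnd1. All 5 genes passed the filter on low counts, as did 13676 genes in all. The count tables carry identifiers only, so these names rest on the list by which the genes were chosen. The reference gene table used here held 0 Ensembl identifiers, so the names were not checked against it.

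Polyadenylated RNA was sequenced from Rat1a cells, an established line of rat fibroblasts that the labels call normal primary fibroblasts. There were 5 stable lines with 3 biological replicates each: an empty-vector line (EV), a line with mouse MYC of wild-type sequence (WT), and lines with the MYC substitutions K149R (R149), K158R (R158) and K323R (R323), in which a lysine is replaced by arginine. With 1 stable line per construct, the effect of a construct and the history of its line cannot be told apart, and the replicates show only how samples of 1 line vary. Library totals ranged from 13303631 to 108933235 counts. The R149 replicate 1 library had the fewest genes with a count, 13955, against 15056 to 17848 in the other libraries. The introduced MYC and the fibroblast markers were not checked, because their identifiers could not be paired with names.

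MYC is a transcription factor that pairs with MAX and binds the E-box CACGTG, and its activity is known to push cells from the resting state into the cycle. Cyclin D1, encoded by Ccnd1, activates the kinase Cdk4, and the complex phosphorylates the retinoblastoma protein so that E2F factors can switch on the genes of DNA replication. One of these is Pcna, the sliding clamp that holds DNA polymerase on its template. Cdk1 is the kinase that drives entry into mitosis. Mki67 encodes Ki-67, a protein of the surface of mitotic chromosomes that is present in cycling cells and lost in resting ones, which makes it a common proliferation marker.

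The promoters of Mki67, Cdk1 and Cdk4 are shown because Mki67 is the gene called in the comparisons below, Cdk1 carries the same kinds of motif as Mki67, and Cdk4 carries the E-box that MYC is known to bind. Of the 5 genes, 4 had an entry among the RefSeq promoters of build GRCr8, and Ccnd1 did not. Each sequence is the 250 bases before the annotated start, 5′ to 3′ on the gene's strand. The counts were made on another build, Rnor_6.0. Capitals mark 3 motifs searched on both strands: the E-box CACGTG, which reads the same on both strands, the cell cycle genes homology region TTTGAA, and the CCAAT box, which reads ATTGG on the other strand.
Mki67, chr1:199952594-199952843, minus strand: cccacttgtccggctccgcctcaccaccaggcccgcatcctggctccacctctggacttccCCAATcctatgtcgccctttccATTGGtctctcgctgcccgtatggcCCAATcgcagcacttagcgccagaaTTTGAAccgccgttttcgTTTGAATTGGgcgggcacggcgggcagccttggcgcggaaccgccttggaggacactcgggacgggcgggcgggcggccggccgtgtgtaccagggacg
Cdk1, chr20:19265043-19265292, plus strand: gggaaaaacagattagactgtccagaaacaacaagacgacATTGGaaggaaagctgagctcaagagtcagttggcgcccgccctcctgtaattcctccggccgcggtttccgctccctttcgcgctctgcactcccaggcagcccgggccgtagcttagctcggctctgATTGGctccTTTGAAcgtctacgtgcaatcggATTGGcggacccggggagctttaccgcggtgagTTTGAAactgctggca
Cdk4, chr7:64771203-64771452, plus strand: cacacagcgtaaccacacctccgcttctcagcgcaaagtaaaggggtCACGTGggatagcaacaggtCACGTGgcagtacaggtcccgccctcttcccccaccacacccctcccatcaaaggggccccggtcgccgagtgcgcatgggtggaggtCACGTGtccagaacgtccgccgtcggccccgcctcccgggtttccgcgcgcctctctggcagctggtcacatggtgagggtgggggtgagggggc

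The Cdk4 window held 3 E-boxes, beginning 203, 183 and 95 bases before the start. Among 33469 rat promoter windows of the same length, 5.59% held an E-box and 0.0508% held 3 or more. The Mki67 window held 4 CCAAT boxes and 2 TTTGAA motifs, 1 of which overlapped a CCAAT box in the run TTTGAATTGG. The Cdk1 window held 3 CCAAT boxes and 2 TTTGAA motifs. Of all windows, 34% held a CCAAT box, 16.2% held TTTGAA and 5.87% held both. For like counts, 2.52% held 3 or more CCAAT boxes and 2.09% held 2 or more TTTGAA motifs. The Pcna window held 1 CCAAT box and neither of the other motifs. CACGTG was found in the Cdk4 window and not in those of Mki67, Cdk1 and Pcna. These matches describe letters in a window and were not tested as binding sites.

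Mki67 was the member that rose against EV in all 4 MYC lines, and the other 4 genes did not pass the test in any of them. Levels are in CPM, which puts the counts of all libraries on the same total, after TMM scaling (trimmed mean of M values). In EV, Mki67 stood at 281.6, 206.7 and 178.5 CPM in replicates 1 to 3. In WT it stood at 377.7, 397.7 and 344.3 CPM. In R149 it stood at 442.3, 529 and 459.2 CPM. All 6 of these MYC libraries lay above every EV library. The share of all genes that separate from EV in this way was not counted, here or for the genes below. In R158 it stood at 286.4, 283.3 and 490.1 CPM, so that 2 of the 3 R158 libraries lay just above the highest EV library. In R323 it stood at 401.7, 714 and 697.2 CPM, and replicates 2 and 3 held the highest Mki67 levels of the data set. In a culture, a larger share of cycling cells and more Mki67 RNA per cycling cell cannot be told apart.

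**Figure D1:**
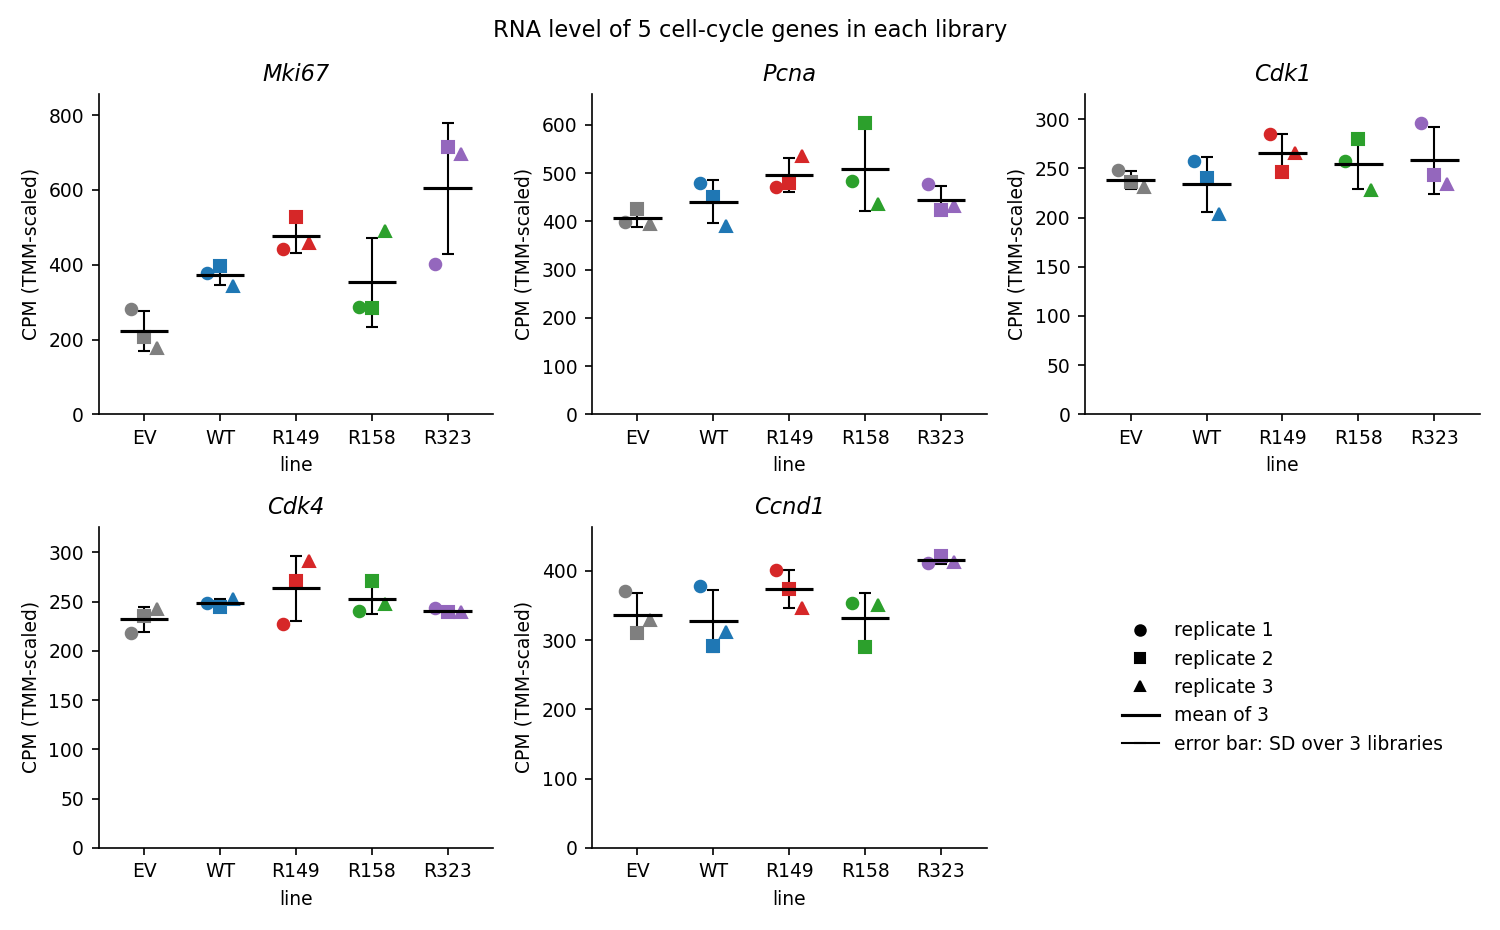
RNA level of Mki67, Pcna, Cdk1, Cdk4 and Ccnd1 (vertical axis, TMM-scaled CPM, from 0) in each library of the 5 lines (horizontal axis); symbols stand for replicate numbers, thick lines for means and error bars for SD (n = 3). The 12 MYC libraries lie above all 3 EV libraries for Mki67, from 283.3 CPM upward against at most 281.6 CPM, while Cdk1 overlaps with EV in every line, Pcna in WT and R323, Cdk4 in the 3 mutant lines and Ccnd1 in WT, R149 and R158.

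The mean Mki67 level was 222.3 ± 53.3 CPM in EV (SD, n = 3) and 373.2 ± 27 CPM in WT. This was a 1.68-fold rise with a 95% interval of 1.19 to 2.37, or 0.75 ± 0.23 on the log2 scale (SE), at an edgeR quasi-likelihood adjusted p of 0.0271. Of all genes tested, 12.6% were called higher in WT. In R149 the mean was 476.8 ± 46 CPM, a 2.15-fold rise (1.52 to 3.03) with an edgeR adjusted p of 0.00196, where 18.2% of all genes were called higher. In R158 the mean was 353.3 ± 119 CPM, a 1.59-fold rise (1.13 to 2.24) with an edgeR adjusted p of 0.0435, where 14.4% of all genes were called higher. In R323 the mean was 604.3 ± 176 CPM, a 2.72-fold rise (1.92 to 3.86) with an edgeR adjusted p of 0.000433, where 14.1% of all genes were called higher. The 4 comparisons share the same EV libraries, so they are not 4 independent observations of a rise.

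The call of Mki67 held in R149 and R323 whichever library of the lines compared was left out, and was lost for WT and R158 without some libraries. For WT the log2 fold change stayed between 0.61 and 0.955 in these fits, and the edgeR adjusted p was 0.0928 without EV replicate 2, 0.125 without EV replicate 3, 0.0625 without WT replicate 1 and 0.0805 without WT replicate 2. For R158 it was 0.126 without EV replicate 2 and 0.186 without EV replicate 3. Without R158 replicate 3, the library with 490.1 CPM, the log2 fold change of R158 was 0.35, down from 0.67, with an adjusted p of 0.253. Without R149 replicate 1, the library with the fewest genes detected, Mki67 in R149 was higher than EV by 1.14 on the log2 scale, with an edgeR adjusted p of 0.00449.

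As an average of the 4 MYC lines, Mki67 stood 1.99-fold above EV (95% interval 1.48 to 2.66), with an edgeR adjusted p of 0.000988. Of all genes, 20% were called higher in this pooled comparison and 42.4% were called in either direction. Genes that rose at least as much as Mki67 made up 5.47% of all genes tested in WT, 2.73% in R149, 7.77% in R158 and 1.43% in R323. Mki67 thus lay in the upper part of the range of changes in each line without being among the few largest.

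**Figure D2:**
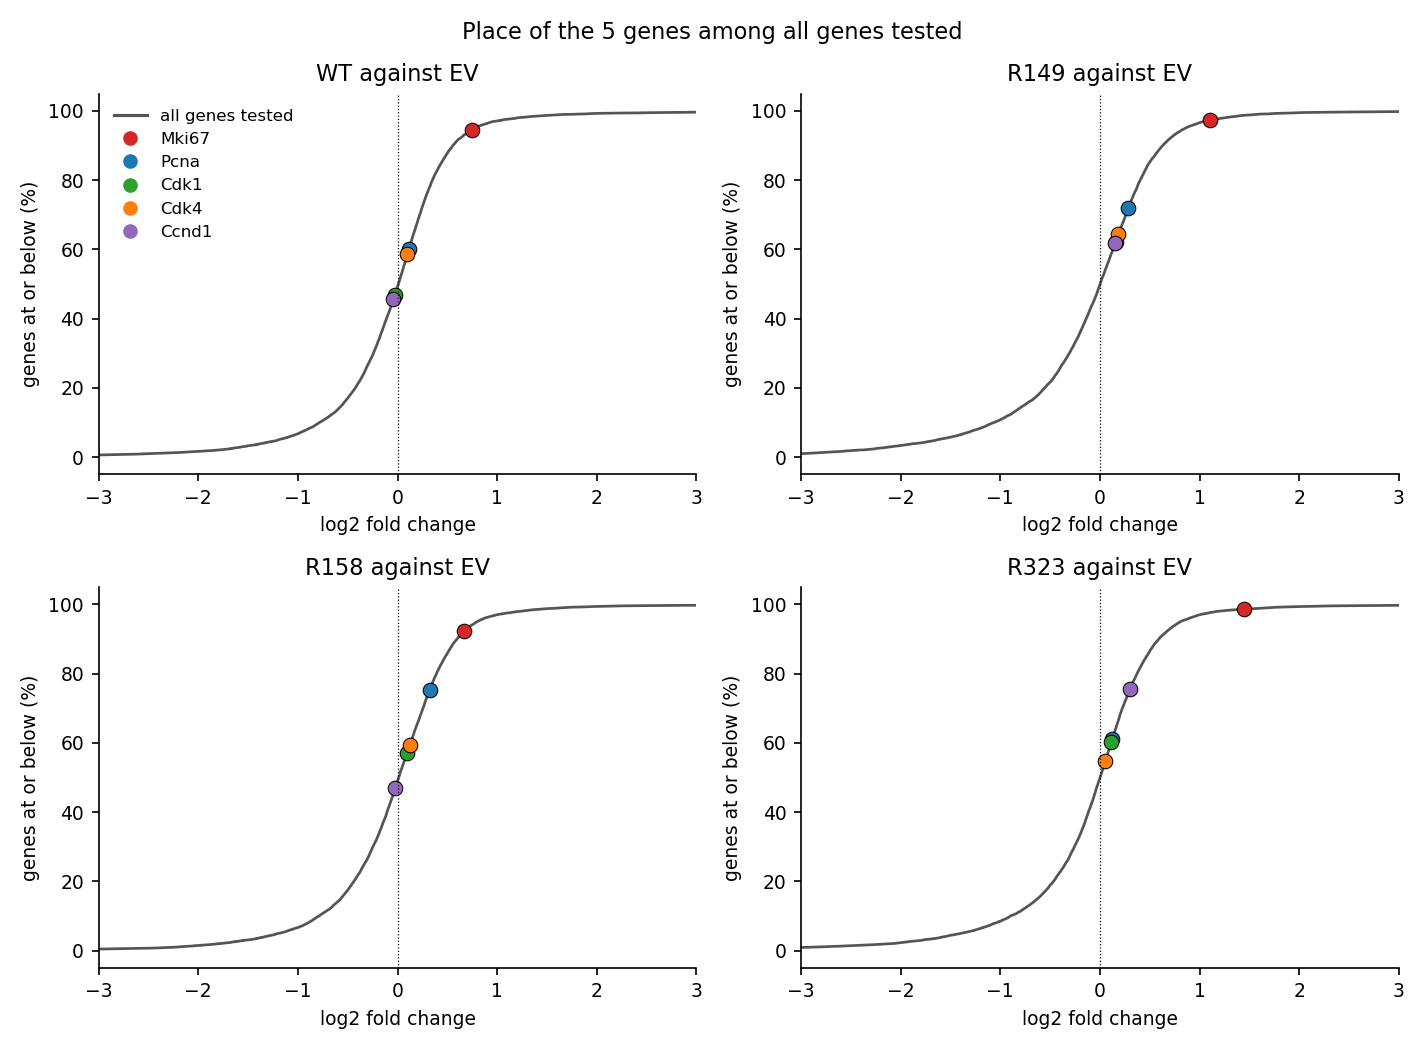
Share of all 13676 genes tested (vertical axis, percent) at or below each log2 fold change against EV (horizontal axis) for the 4 MYC lines, with the 5 genes marked. Mki67 lies near the top of each curve, with 5.47% of genes at or above it in WT and 1.43% in R323, and the other 4 genes lie on the steep middle part.

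Pcna, the replication clamp, was the next most changed gene by its average over the MYC lines, and it did not pass the test. In EV, Pcna stood at 398, 426.2 and 395.2 CPM. In R149 it stood at 471.4, 479.6 and 536.5 CPM, and in R158 at 482.8, 604.7 and 435.8 CPM. All libraries of these 2 mutant lines lay above the highest EV library, whereas WT (478.8, 451.5 and 391.3 CPM) and R323 (476.9, 422.8 and 431.4 CPM) overlapped with EV. The fold against EV was 1.22 in R149 (95% interval 1.02 to 1.46, edgeR adjusted p 0.0699) and 1.25 in R158 (1.05 to 1.49, adjusted p 0.0562). It was 1.08 in WT (0.909 to 1.29, adjusted p 0.509) and 1.09 in R323 (0.915 to 1.3, adjusted p 0.461). DESeq2 called Pcna higher in R158, with an adjusted p of 0.0476, so this difference lay close to the threshold. Leaving out 1 library moved the edgeR adjusted p of Pcna in R158 between 0.0231, without R158 replicate 3, and 0.255, without R158 replicate 2 (log2 fold change 0.18, against 0.32 with all libraries). Averaged over the MYC lines, Pcna stood 1.16-fold above EV (1.01 to 1.34, edgeR adjusted p 0.0873).

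Cdk1, the mitotic kinase, differed little between the lines. It stood at 247.9, 235.6 and 231 CPM in EV, at 257.8, 240 and 203.5 CPM in WT and at 285, 246.7 and 265.3 CPM in R149. The R158 libraries held 257.1, 280 and 227.6 CPM and the R323 libraries 296.4, 243.6 and 233.9 CPM. Every MYC line overlapped with EV, and the lowest of all values was that of WT replicate 3. The folds against EV were 0.982 in WT, 1.12 in R149, 1.07 in R158 and 1.08 in R323, with edgeR adjusted p of 0.892, 0.309, 0.564 and 0.501. Their 95% intervals together reached from 0.825 to 1.33.

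Cdk4, the G1 kinase whose promoter window holds 3 E-boxes, was also close to EV in every line. It stood at 218, 235.7 and 242.3 CPM in EV and at 248.2, 244.7 and 252.7 CPM in WT, so the WT libraries lay just above the EV libraries. R149 spread from 227.6 through 271 to 291.6 CPM, the lowest value being that of replicate 1. R158 held 240.5, 271.2 and 247.4 CPM and R323 held 243.4, 239.8 and 239 CPM. The folds against EV were 1.07 in WT (95% interval 0.928 to 1.24), 1.14 in R149 (0.984 to 1.31), 1.09 in R158 (0.945 to 1.26) and 1.04 in R323 (0.899 to 1.2). The edgeR adjusted p was 0.486, 0.149, 0.357 and 0.723 in this order. Cdk4 in R149 was not called with all libraries and was called in 1 of 14 alternatives. This was the fit without R149 replicate 1, where it stood 0.27 log2 units above EV with an edgeR adjusted p of 0.0409.

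Ccnd1, the cyclin that activates Cdk4, was close to EV in WT and R158 and highest in R323. It stood at 370.6, 310.3 and 328.8 CPM in EV, at 377.6, 291.8 and 311.7 CPM in WT and at 354.2, 290.4 and 350.8 CPM in R158. The R149 libraries held 400.5, 373.8 and 346.5 CPM. The R323 libraries held 410.9, 421.1 and 413.1 CPM, above all other libraries and within a narrow range (415 ± 5.37 CPM, SD, n = 3). The fold of R323 against EV was 1.23 (95% interval 1.04 to 1.46) with an edgeR adjusted p of 0.0596, which missed the threshold. DESeq2 gave an adjusted p of 0.0469 for the same difference, and edgeR gave between 0.0398, without EV replicate 1, and 0.206, without EV replicate 2. The folds in WT, R149 and R158 were 0.972, 1.11 and 0.986, with edgeR adjusted p of 0.821, 0.319 and 0.913.

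Over Pcna, Cdk1, Cdk4 and Ccnd1 in the 4 MYC lines, 0 of 16 comparisons with EV passed edgeR's adjusted threshold and 3 had an unadjusted p below 0.05. DESeq2 called 2 of the 16 and limma-voom 0. Of all genes, edgeR called 26.8% in WT, 38.5% in R149, 28.5% in R158 and 29.8% in R323 in either direction. Without EV replicate 3 these shares were 17.2%, 27.8%, 15.1% and 21%, and without EV replicate 2 the share for R158 was 18.2%. The 95% intervals of all 16 folds lay between 0.82 and 1.49, so a change of 2-fold lay outside every one of them. Each of the 16 log2 fold changes was smaller in size than the median size over all genes tested, which was 0.30 in WT, 0.36 in R149 and 0.32 in R158 and R323. The median log2 fold change of the 5 genes was 0.10 in WT, 0.18 in R149 and 0.13 in R158 and R323, beside 0.00922, 0.00262, 0.0117 and 0.00201 over all genes.

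**Figure D3:**
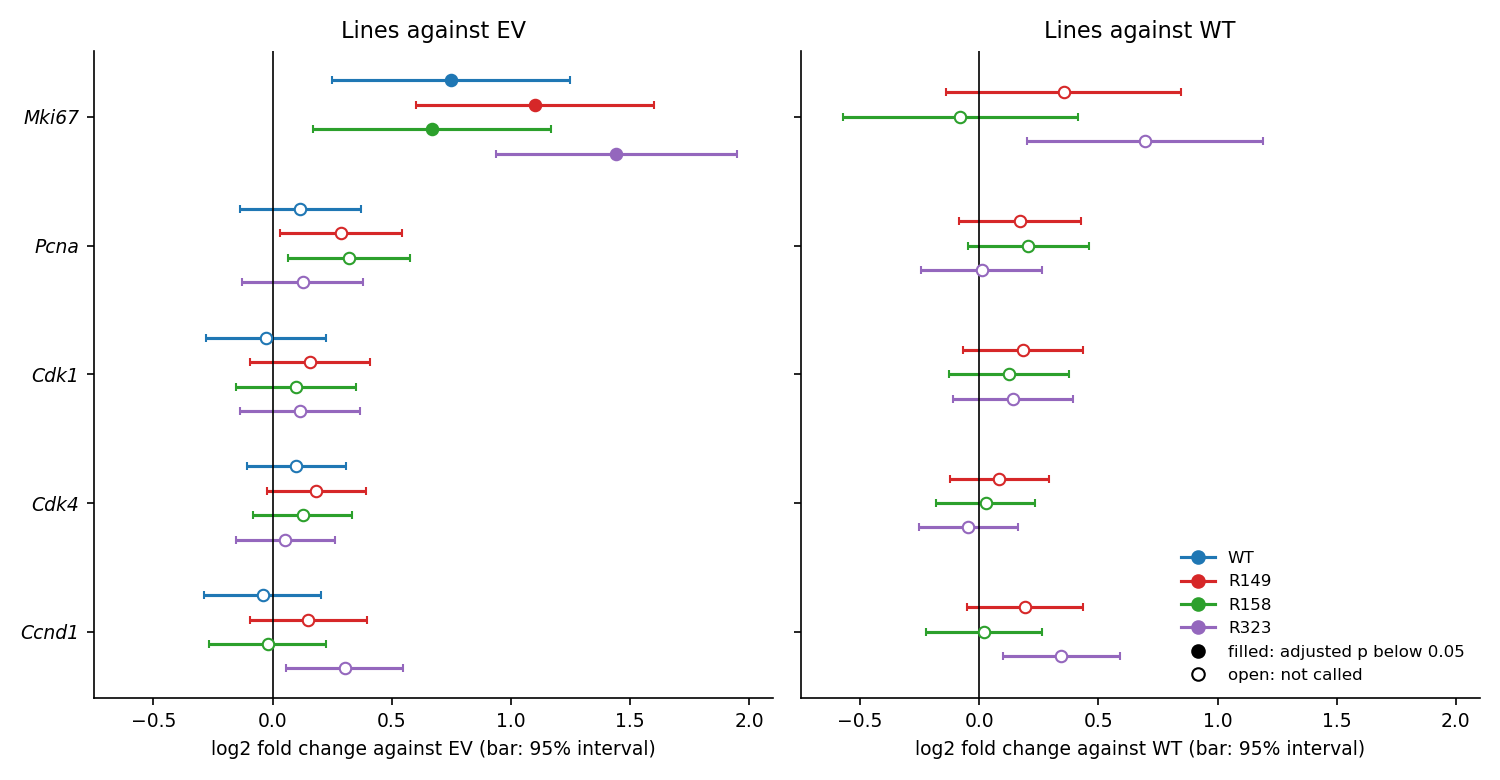
Log2 fold change (horizontal axis) of each gene (vertical axis) in the MYC lines against EV, left, and in the mutant lines against WT, right, with 95% intervals as bars and filled points for an edgeR adjusted p below 0.05. The filled points are Mki67 in the 4 lines against EV, between 0.67 and 1.44, and no point is filled against WT.

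The ratio of Mki67 counts to those of another member in the same library does not depend on how libraries are scaled. The ratio to Cdk1 was 1.14, 0.877 and 0.773 in the EV libraries and 1.46, 1.66 and 1.69 in the WT libraries. It was 1.55, 2.14 and 1.73 in R149, and 1.36, 2.93 and 2.98 in R323. These 3 lines lay above EV in every library, with the mean log2 ratio higher by 0.81, 0.97 and 1.31. In R158 the ratio was 1.11, 1.01 and 2.15, and 2 of its 3 libraries lay within the range of EV. An exact two-sided permutation test gave p = 0.1 for WT, R149 and R323 and p = 0.3 for R158, where 0.1 is the smallest p that 3 libraries against 3 allow.

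The ratios to the other genes gave the same order of lines. They share the same Mki67 counts, so they are not separate observations of this order. Relative to Pcna, the Mki67 ratio was 1.58-fold that of EV in WT, 1.79-fold in R149, 1.26-fold in R158 and 2.46-fold in R323. Relative to Cdk4 it was 1.59, 1.93, 1.43 and 2.58-fold, and relative to Ccnd1 1.76, 1.96, 1.59 and 2.17-fold. WT, R149 and R323 did not overlap with EV in any of the 4 Mki67 ratios, while R158 overlapped in the ratios to Pcna, Cdk1 and Cdk4 and not in the ratio to Ccnd1. The ratio of Ccnd1 to its kinase Cdk4 was 1.46 ± 0.211 in EV and 1.72 ± 0.0343 in R323 (SD, n = 3), for which an exact permutation test gave p = 0.2. In WT, R149 and R158 it was 1.32, 1.44 and 1.32, with exact permutation p of 0.5, 1 and 0.6. Over the 20 ratio tests the lowest Benjamini-Hochberg adjusted p was 0.154. As no exact p of 3 libraries against 3 can fall below 0.1, these tests could not reach 0.05. The ratios were chosen after seeing the data.

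**Figure D4:**
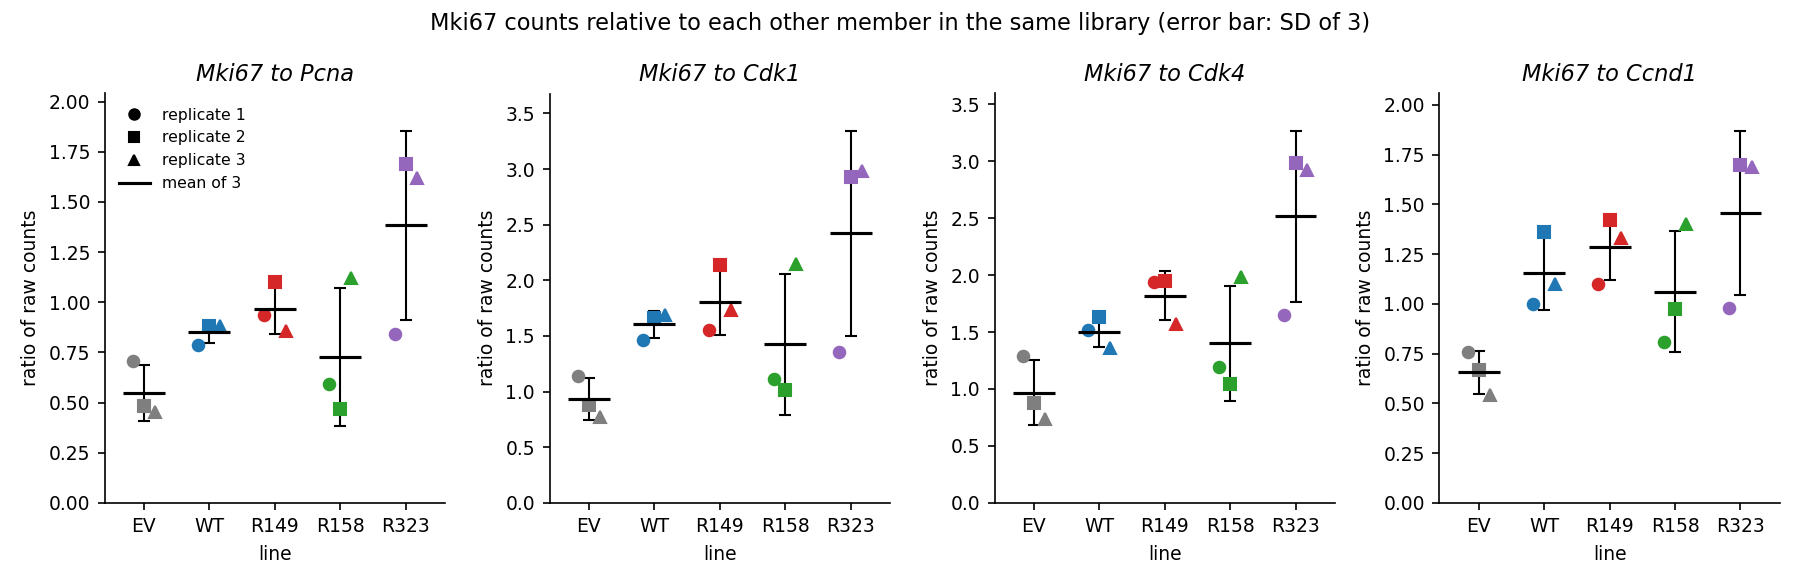
Ratio of raw Mki67 counts to those of Pcna, Cdk1, Cdk4 and Ccnd1 in the same library (vertical axes, from 0) for the 5 lines (horizontal axes), with replicate symbols, means and SD (n = 3). The ratio to Cdk1 lies at or above 1.36 in every WT, R149 and R323 library and at or below 1.14 in EV, while R158 replicate 3 (2.15) stands apart from the other R158 libraries.

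Comparisons of the mutants with WT asked whether a substituted lysine changed these RNAs relative to wild-type MYC. With edgeR, 0 of 15 such comparisons were called, and DESeq2, limma-voom and an edgeR fit blocked by replicate number also called 0. Without that block, an unadjusted edgeR p below 0.05 was reached by 2 of them. With it, Ccnd1 in R149 also fell below 0.05, with an unadjusted edgeR p of 0.0497 and an adjusted p of 0.292. Of all genes, edgeR called 1.18% for R149, 0.6% for R158 and 0.892% for R323. These shares moved to 3.73%, 1.78% and 2.36% in a fit blocked by replicate number, to 2.9%, 1.67% and 1.97% in DESeq2, and to 2.59%, 1.5% and 1.76% without WT replicate 1. The lowest shares were 0.405% for R149 with only the lines compared, 0.136% for R158 without WT replicate 3 and 0.444% for R323 without R323 replicate 3. Mki67 in R323 was 1.62-fold its level in WT (95% interval 1.15 to 2.28), with an unadjusted p of 0.00912 and an edgeR adjusted p of 0.276. Ccnd1 in R323 was 1.27-fold its level in WT (1.07 to 1.5), with an unadjusted p of 0.00909 and an edgeR adjusted p of 0.276. In the fit blocked by replicate number, the edgeR adjusted p of R323 against WT was 0.0632 for Ccnd1 and 0.187 for Mki67. Both genes were higher in R323 than in WT in 3 of 3 pairs of equal replicate number. The Mki67 differences of these pairs were 0.0892, 0.844 and 1.02 on the log2 scale, so replicate 1 differed little.

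Mki67 in R149 was 1.28-fold its level in WT (0.907 to 1.8, edgeR adjusted p 0.625), with paired log2 differences of 0.228, 0.412 and 0.415. In R158 it was 0.946-fold (0.672 to 1.33, edgeR adjusted p 0.931), lower than WT in replicates 1 and 2 and higher in replicate 3. For Pcna, Cdk1 and Cdk4 the folds against WT lay between 0.969 and 1.15 in all 3 mutants. Averaged over the 3 mutants, 0 of 5 genes were called by edgeR, DESeq2 or limma-voom. Without a replicate block 0 had an unadjusted p below 0.05. Of all genes, edgeR called 1.11% (2.94% with the replicate block). With that block, Ccnd1 had an unadjusted p of 0.0244 and an edgeR adjusted p of 0.252. The largest of these averages was that of Mki67, at 1.25-fold (0.941 to 1.66, edgeR adjusted p 0.735).

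In order of mean Mki67 level, the lines ran EV, R158, WT, R149 and R323. Neighbouring MYC lines in this order did not differ by the test, the fold being 0.946 for R158 against WT, 1.28 for R149 against WT and 0.789 for R149 against R323 (0.56 to 1.11, edgeR adjusted p 0.593). The widest gap among MYC lines was between R158 and R323. Mki67 in R158 was 0.584-fold its level in R323 (0.414 to 0.825), with an edgeR adjusted p of 0.139, or 0.0775 with the replicate block. This difference was called in 3 of 14 alternatives, with DESeq2 (adjusted p 0.0377) and with edgeR without R158 replicate 3 (0.0401) or R323 replicate 1 (0.0367). Without R158 replicate 2 the edgeR adjusted p was 0.617, with a log2 fold change of -0.64 against -0.77 with all libraries. R158 replicate 3 and R323 replicate 1 each lay apart from the other libraries of its line, towards the level of the other line. Of the 15 comparisons among the mutants, edgeR called 0, DESeq2 called 1 and limma-voom called 0, with 2 at an unadjusted p below 0.05, while 1.27% of all genes were called for R149 against R158, 1.07% for R149 against R323 and 0.936% for R158 against R323 (2.79%, 2.21% and 3.44% with the replicate block).

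A test for any difference among the 4 MYC lines gave an edgeR adjusted p of 0.196 for Mki67 and 0.259 for Ccnd1, with unadjusted p of 0.015 and 0.0281. For Pcna, Cdk1 and Cdk4 the edgeR adjusted p was 0.588, 0.759 and 0.838. Of all genes, 3.08% were called in this test, 6.72% with the replicate block and 6.79% with DESeq2. DESeq2 called Mki67 with an adjusted p of 0.0465, and limma-voom called 0 of the 5 genes. With the replicate block, the edgeR adjusted p was 0.121 for Mki67 and 0.0671 for Ccnd1.

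The spread between replicates differed among the 5 genes. The biological coefficient of variation fitted by edgeR was 20.2% for Mki67, against 11.2% for Pcna, 11% for Cdk1, 9.46% for Cdk4 and 10.8% for Ccnd1, and the median over all genes was 14.4%. Counting error was far smaller, between 0.418% and 1.81% of the value, because every gene had at least 3061 counts in every library. The spread between replicates covers culture and library preparation together. The Mki67 spread was widest in R158 (33.5% of the mean) and R323 (29.1%), where 1 replicate stood apart from the other 2, and narrowest in WT (7.23%).

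Levels of 2 genes were also compared across the 12 MYC libraries, as a description. These libraries share 4 lines and 3 replicate numbers and are not independent. A permutation test run for each pair treats them as independent, so it cannot decide whether 2 genes are related. Its lowest Benjamini-Hochberg adjusted p was 0.0813, for Pcna with Cdk1 by Pearson's r. The largest correlations of log2 CPM among the 10 pairs of genes were those of Pcna with Cdk1 and of Mki67 with Ccnd1 by Pearson's r, and of Cdk4 with Ccnd1 by Spearman's rho. Pcna and Cdk1 had an r of 0.725 and a rho of 0.685. This r was 0.576 without R158 replicate 2 and WT replicate 3, and 0.767 for deviations from the line means. Mki67 and Ccnd1 had an r of 0.654 and a rho of 0.643. This r was 0.452 without R323 replicates 2 and 3, and 0.199 for deviations from the line means. Mki67 had an r of -0.451 with Pcna, -0.229 with Cdk1 and -0.163 with Cdk4. For deviations from the line means the r was -0.543, -0.691 and -0.08 in this order. Without R323 replicates 2 and 3, the r of log2 CPM was -0.261, -0.0784 and 0.131. Cdk4 and its cyclin Ccnd1 ran in opposite directions, with a rho of -0.692 and an r of -0.433. This r was -0.309 without R149 replicate 3 and R158 replicate 2, and -0.572 for deviations from the line means. Values of a library also share its scaling factor.

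Among 12019 other genes with a mean of at least 1 CPM, the one most like Mki67 over the 15 libraries was ENSRNOG00000011969, with a Pearson's r of 0.961. Its mean level was 36.3 ± 8.13 CPM in EV, 56.8 ± 3.83 in WT, 61.9 ± 6.81 in R149, 51.8 ± 9.84 in R158 and 75.7 ± 15.2 CPM in R323 (SD, n = 3), the same order of lines as Mki67. An r of at least 0.9 with Mki67 was reached by 34 genes. For Ccnd1 such an r was reached by 1 gene, ENSRNOG00000020857, with an r of 0.932. Its level was 79.7 ± 4.8 CPM in EV, 79.3 ± 10.4 in WT, 87.8 ± 8.31 in R149, 81 ± 10.2 in R158 and 94.2 ± 4.1 in R323, highest in R323 as for Ccnd1. Both genes were picked for their likeness over these same libraries, so a shared order of lines follows largely from the choice. These correlations describe 15 libraries that share lines and scaling, and no test was made of them.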

How the data were processed

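The deposited tables, 1 for each library, held raw counts, which are whole numbers per Ensembl gene identifier without normalization. Per the submitters' processing notes, TopHat2 2.1.0 and the rat build Rnor_6.0 were used, and per the labels' protocols libraries were made with a stranded dUTP mRNA kit. Which counter, strand option and annotation produced them is not given in the sources used here, so reads shared with near-identical copies or antisense genes are uncertain. The 5 genes and the tests were chosen with earlier results of these data known.

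The test was edgeR's quasi-likelihood test (version 4.0.16, R 4.3.3). Genes passed filterByExpr with a minimum of 10 counts, TMM factors scaled the libraries, and 1 fit over all 15 libraries had only the line as a term. P-values were adjusted by Benjamini-Hochberg over all 13676 genes, and a gene was called below 0.05. The SE was the log2 fold change divided by the square root of F. The procedure was run on simulated counts as a check of the code, and how well it finds small changes is not reported here. The labels state biological replicates without naming their source. Chi-square per degree of freedom between replicates was at least 4.24, more than counting error alone gives, and every library was kept. This check cannot tell separate cultures from separate library preparations of 1 culture. The value of 4.24 was that of R323 replicates 2 and 3, against 19 to 81.8 for the other pairs within MYC lines. The next lowest was 7.76, for EV replicates 2 and 3, against 21.4 and 24.6 for the pairs with EV replicate 1. Deviations of libraries with equal replicate number correlated between 0.127 and 0.54 in every pair of MYC lines, and between 0.00523 and 0.208 with EV. The threshold was an r above 0.1 in every pair, which only the MYC lines met, although these ranges overlap. The replicate number was therefore taken to pair the libraries among MYC lines, from the data and not the labels. It changed no call of the 5 genes there. Alternatives were DESeq2 1.42.0, limma-voom (limma 3.58.1), other scalings and filters, a replicate block, fits of the compared lines alone and leaving out each library. The rule for named genes took the 5 genes, and the gene most like Mki67 and most like Ccnd1 by Pearson's r of log2 CPM with a prior count of 2. A list of other cell-cycle genes and of fibroblast markers was set up by symbol and could not be used, as 0 of their identifiers were paired.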

Additional observations from a re-analysis of the deposited data

How the results depend on the processing

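Over 1000 recalculations of 65 results, 946 kept their direction and their side of the threshold, 10 lost a call, 17 gained one and 27 changed sign. None of the sign changes concerned a called value. The cause of these changes was not tested. Mki67 against EV was called in 46 of 56 alternatives, in all 14 for R149 and all 14 for R323. For R158 the log2 fold change was 0.618 with library totals alone (edgeR adjusted p 0.0846), 0.645 with limma-voom (0.0534) and 0.648 with a minimum of 50 counts (0.051). Leaving out 1 library gave 0.61 to 0.955 for WT and 0.348 to 0.866 for R158. Pcna gained a call in R158 with DESeq2 (0.301), and in R149 with only the lines compared (0.284). Ccnd1 in R323 gained one with DESeq2 (0.291) and with only the lines compared (0.305). With the replicate number as a block, log2 fold changes against EV of 0.291 for Pcna in R149, 0.317 for Pcna in R158 and 0.309 for Ccnd1 in R323 were called, though the pairing with EV was not established. The block changed no other call.

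Leaving out 1 library gave log2 fold changes against EV of 0.177 to 0.41 for Pcna in R158, 0.105 to 0.265 for Cdk4 in R149, 0.247 to 0.38 for Ccnd1 in R323 and 0.178 to 0.248 for the MYC lines' mean of Pcna. Sign changes among values that were not called gave -0.102 to 0.0647 for Cdk1 in WT, -0.157 to 0.0354 for Ccnd1 in WT and -0.0804 to 0.0673 for Ccnd1 in R158. Against WT they gave -0.4 to 0.0571 for Mki67 in R158, -0.027 to 0.0499 for Cdk4 in R158, -0.0673 to 0.127 for Ccnd1 in R158, -0.0664 to 0.0751 for Pcna in R323 and -0.00429 to 0.046 for the mutants' mean of Cdk4. For R149 against R158 they gave -0.134 to 0.112 for Pcna, -0.0164 to 0.134 for Cdk1 and -0.0216 to 0.149 for Cdk4. For Cdk1 they gave -0.0256 to 0.138 in R149 against R323 and -0.104 to 0.0799 in R158 against R323. With library totals alone, Cdk4 and Ccnd1 in R158 against WT were -0.0104 and -0.00999, and Cdk1 in R149 against R323 was -0.00257. The log2 count ratio, an analysis chosen after seeing the data, ranged from -0.0272 to 0.604 for Mki67 to Pcna in R158 and from -0.178 to 0.105 for Ccnd1 to Cdk4 in R149. By Spearman's rho, ENSRNOG00000011969 ranked 10 among the genes most like Mki67, with a rho of 0.939, and ENSRNOG00000020857 stayed first for Ccnd1. Pooled and several-line tests were not run on the lines compared alone. Counting error was at most 1.81% for these 5 genes.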
